A study of Drosophila melanogaster with 4 samples.

Results

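The no ocelli (noc) region of chromosome arm 2L carried a dense run of binding peaks for TCF in Drosophila melanogaster embryos. Its members are the peaks of the deposited list whose midpoint lies between 14400000 and 14600000 on 2L, in coordinates of FlyBase release 5. They are 64 of 4589 peaks in all, and 64 of the 967 peaks on 2L. The members were thus chosen by the positions of the called peaks, in a region picked for its many peaks. Their number, spacing, scores and widths come from the same ChIP experiment and are given as descriptions, without a test.

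The series is a ChIP-seq experiment, in which an antibody pulls a protein out of cross-linked chromatin and the attached DNA is sequenced. It has 2 TCF ChIP libraries and 2 input libraries from whole embryos of 0 to 8 h (input is chromatin DNA that did not go through the antibody step). All libraries share the strain Y cn bw sp. It carries the body and eye colour markers y[1], cn[1] and bw[1] together with sp[1]. It also carries the alleles oc[R3.2], CG33964[R4.2] and lab[R4.2], and further Gr22b[1] with Gr22d[1], LysC[1] with MstProx[1], and GstD5[1] with Rh6[1]. The gene oc is ocelliless, which is another gene than noc. The antibody was a crude rabbit polyclonal serum against the N-terminus of TCF, the product of pangolin (pan). The stage label was followed here, although the protocol text names a later egg-laying window. Whether the replicates were separate collections is not stated in the labels. The files hold 1 peak list for all the libraries, so no peak has a value per library or an error between replicates, and library depth is unknown. In whole embryos, stronger binding in few cells and weaker binding in many cells cannot be told apart.

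TCF is the DNA-binding protein at the end of the Wingless (Wnt) pathway. Without the signal it acts with the co-repressor Groucho, and with the signal it recruits Armadillo, the fly beta-catenin, and its target genes are switched on. The gene noc encodes a zinc finger protein of the NET family, named for its role in the ocelli, the simple eyes on top of the head. It also acts in tracheal branching and in leg and wing development, where it is known to respond to Wingless and Dpp. Its paralogue elbow B (elB) has overlapping roles, and both proteins work with Groucho.

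The gene order was taken from the RefSeq annotation of release 6, which is not the release of the peaks, so no peak was assigned to a gene and no distance to noc is given. On 2L, noc (Dmel_CG4491) has the protein-coding neighbours CG15283 on the side of elB and CG33648 on the side of outspread (osp). Between elB (Dmel_CG4220) and noc lie 8 annotated genes, of which 5 are lncRNAs and 3 code for proteins. These are Pburs, a subunit of the hormone bursicon, the cuticle protein gene Cpr35B, and CG15283. Between noc and osp lie 18 genes, of which 4 are protein-coding (CG33648, CG4218, CG3473 and CG42680), 7 are lncRNAs and 7 are tRNAs. The protein-coding neighbour of elB on its far side is ppk, which encodes a sodium channel of sensory neurons.

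TCF peaks covered a large part of the noc region. The 64 peaks spanned 158 kb from the first start to the last end and covered 71.4 kb, which is 35.7% of the 200 kb. They made up 1.39% of all peaks and 6.62% of the peaks on 2L, and 9.70% of the length covered by peaks on 2L. The arms 2L, 2R, 3L, 3R, 4 and X were divided into windows of the same length, and the windows with any peak held a median of 7. The window borders were aligned to the limits of the noc region, which stays whole, while other dense stretches may be cut by a border. The next fullest of these windows held 44 peaks (3R, 800000 to 1000000), 39 peaks (3R, 17200000 to 17400000) and 37 peaks (2R, 2400000 to 2600000). Peaks covered 19.5%, 17.2% and 11.6% of these windows, in the same order, against 35.7% of the noc region.

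The peaks lay in 2 chains and a last small group, where a chain is a run of peaks with at most 5000 bases between neighbours. The first chain ran for 97.4 kb from 14423511 to 14520903 and held 44 peaks that covered 55.8% of it. The second ran for 39.8 kb from 14527266 to 14567069 and held 17 peaks that covered 37.9%. The last group held 3 peaks from 14576967 to 14581549. The widest gap in the region, 9897 bases, lay between the second chain and the last group. The longest chain outside the region had 27 peaks. Chains of at least 5 peaks numbered 158 among the 2337 chains and single peaks on the arms, and 1426 of these were single peaks.

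**Figure D1:**
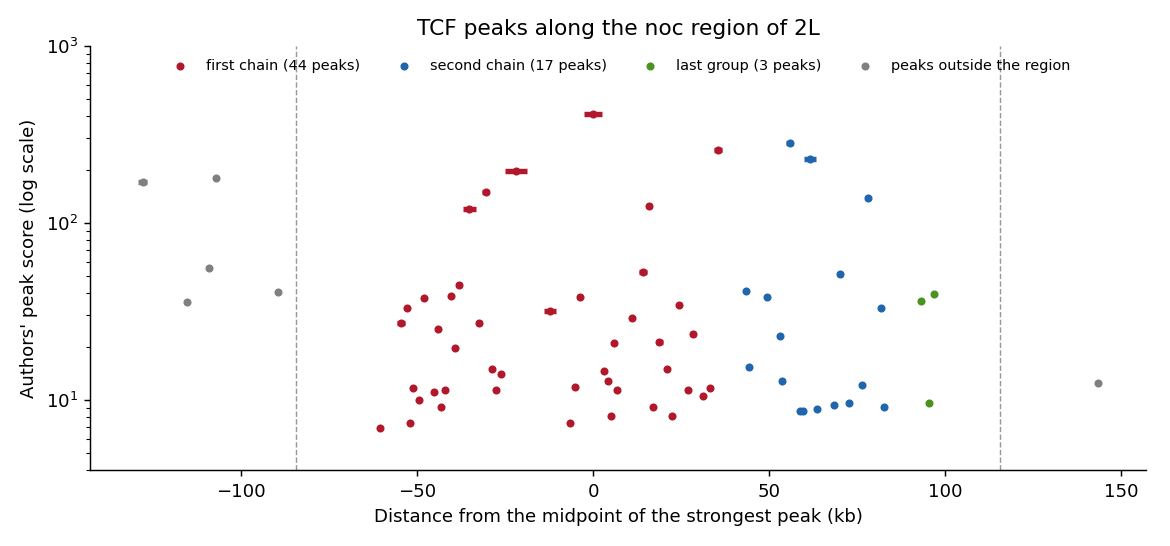
Authors' score (log axis) of each TCF peak against its distance in kb from the midpoint of the strongest peak; dots mark midpoints, horizontal bars mark the peak from start to end, and dashed lines mark the ends of the region. The 9 peaks with scores from 119.59 to 410.65 are spread through the first and second chain among many peaks of lower score, and both ends of the region hold no peak.

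The ends of the region were empty, so its limits cut through no peak. The first member, at 14423511 to 14423779, lay 23.5 kb inside the lower limit and had the lowest score of the region, 6.91. The last member, at 14580870 to 14581549, lay 18.5 kb inside the upper limit and had a score of 39.77. The nearest peak below the region, at 14394472 to 14395179, ended 4.82 kb outside it and had a score of 40.71. A further 4 peaks lay within 42.4 kb of that limit, with scores from 35.61 to 179.41. Above the region peaks were sparse. The nearest lay 27.5 kb outside, with a score of 12.47, and the next began 243.5 kb and 457.1 kb outside, with scores of 25.41 and 14.00.

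The strongest TCF peak of the region lay in the first chain, at 14481654 to 14486882. Its score was 410.65, rank 32 of the whole list. The authors gave the score no name, but its values match the negative log10 of a Poisson probability at a whole-number read pileup, with a single expected pileup of 71.7. All 64 members matched this scale within 0.01, against 94.7% of all peaks, so each has an implied pileup and an implied fold over that expectation. This fold is relative to a single value for the whole genome, not to the local input. The pileup is known to within 1, and since peaks were called for being high, it overstates the height. The strongest peak had an implied fold of 9.61 (95% exact Poisson interval 8.90 to 10.35, counting error only). Its interval lies above that of each other member.

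The next 3 peaks by score all lay in the upper part of the region, on both sides of the break between the chains. The peak at 14539205 to 14541161, in the second chain, had a score of 283.22 and an implied fold of 7.71 (interval 7.08 to 8.38). The peak at 14518740 to 14520903, which closes the first chain, had a score of 259.55 and an implied fold of 7.33 (6.72 to 7.99). The peak at 14544137 to 14547520 had a score of 229.76 and an implied fold of 6.85 (6.25 to 7.48). These 3 intervals overlap, so the order of the 3 peaks is not settled by counting error alone.

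The other peaks among the 10 highest scores were spread over both chains. The peak at 14459246 to 14465630 had a score of 197.05 (implied fold 6.29) and was the widest of the region. The peaks at 14452686 to 14454830 and at 14561521 to 14563049 had scores of 149.44 and 138.54 (implied folds 5.42 and 5.21). The peaks at 14499617 to 14500984 and at 14447288 to 14450931 had scores of 125.11 and 119.59 (implied folds 4.95 and 4.84). The score then dropped to 52.67 (implied fold 3.30) at 14497372 to 14499513. No member had a score between 52.67 and 119.59.

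The share of members at 3-fold or more was near that of the whole list. An implied fold of at least 3 was reached by 12 of the 64 members (18.8%), against 20.0% of all peaks with a fold and 21.7% of those on the rest of 2L. A fold of at least 5 was reached by 7 members (10.9%), against 5.62% of all peaks and 6.49% of those on the rest of 2L. The member just inside the 3-fold threshold, at 14445429 to 14446922, had a fold of 3.08 (95% interval 2.69 to 3.51), and the one just outside, at 14527266 to 14528071, had 2.98 (2.60 to 3.41). Of the 500 peaks with the highest score in the list, 9 lay in the region, which is 14.1% of the members, where 10.9% of the whole list belongs to these 500.

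Most members were weak, as in the rest of the list. The median score was 17.5 (interquartile range 10.9 to 38.0) in the noc region, 16.3 (11.3 to 34.3) on the rest of 2L and 16.3 (11.0 to 33.4) over all peaks. The implied fold was under 2 in 27 members (42.2%), with scores from 6.91 to 12.77, against 39.3% on the rest of 2L. It lay between 2 and 3 in 25 members (39.1%), with scores from 14.00 to 41.19, against 39.0%. Only 50 different scores occurred among the 64 members, and 25 members shared theirs with another member, which is how whole-number pileups appear.

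The median width of the members was above that of the other peaks on 2L in each class of implied fold. In the noc region the median width was 737.5 bp, with quartiles at 365.5 and 1498 bp, against 517 bp on the rest of 2L, with quartiles at 314 and 899.5 bp. Within the weakest class, below 2-fold, the median width was 352 bp over 27 members and 302 bp over 333 peaks on the rest of 2L. Between 2-fold and 3-fold it was 875 bp over 25 members and 619 bp over 331 peaks. At 3-fold or more it was 2143.5 bp over 12 members and 1252 bp over 184 peaks. This last class has no upper limit and is not matched for strength. It held 7 members at 5-fold or more among its 12, against 55 of the 184 peaks. At 5-fold or more the median width was 2164 bp in the region and 1730 bp on the rest of 2L, a smaller difference. The noc region was close to the next fullest window in both measures, with a median score of 17.5 and a median width of 737.5 bp, against 17.3 and 691.5 bp in the window on 3R at 800000 to 1000000. The median width was 509 bp in the window on 3R at 17200000 to 17400000 and 514 bp in the window on 2R. A width is set by the same pileup and threshold as the peak call, so these differences carry no test.

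**Figure D2:**
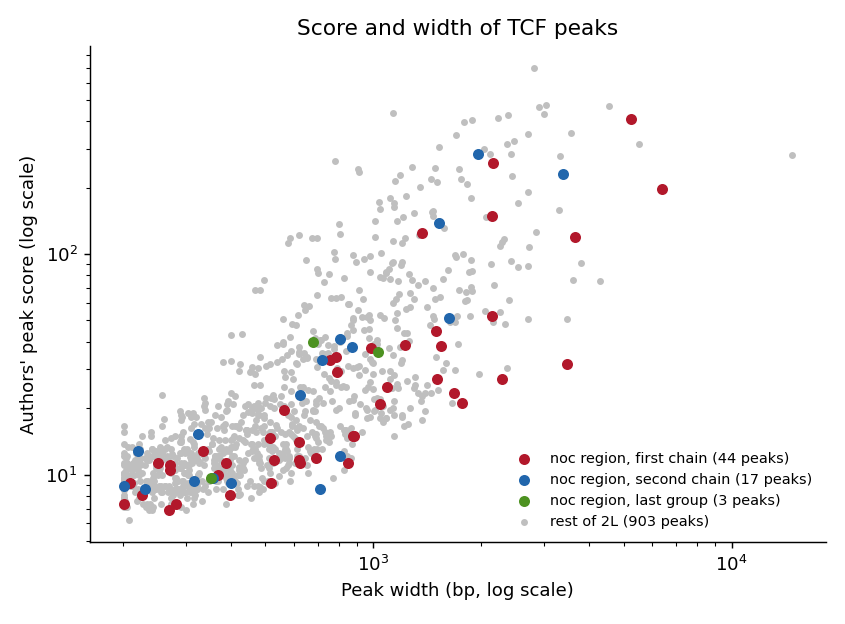
Authors' score against peak width in bp, both on log axes, for the 64 members, coloured by chain, and for the 903 other peaks on 2L in grey. Score and width go together in both sets, and most members of intermediate and high score lie towards the wide side of the grey cloud.

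A few broad peaks held much of the covered length. The 5 widest members were the peak at 14459246 to 14465630 with 6385 bp, the strongest peak with 5229 bp, the peak at 14447288 to 14450931 with 3644 bp, the peak at 14470215 to 14473694 with 3480 bp, and the peak at 14544137 to 14547520 with 3384 bp. Together they covered 22.1 kb, or 31.0% of the length covered in the region. The 12 members at 3-fold or more covered 33.1 kb (46.3%), and the 27 members under 2-fold covered 10.9 kb (15.3%). These shares were near those elsewhere. Peaks at 3-fold or more held 43.8% of the covered length on the rest of 2L and 39.6% over all peaks. Peaks under 2-fold held 17.3% and 17.6%. Outside the region the covered length includes peaks without an implied fold. Of the 9 members wider than 2000 bp (14.1%, against 4.76% of peaks on the rest of 2L), 7 reached 3-fold. The other 2 were the peak at 14428623 to 14430913, with 2291 bp, a score of 27.02 and a fold of 2.54, and the peak at 14470215 to 14473694, with a score of 31.64 and a fold of 2.69. The 3480 bp of the last peak was the greatest width among all 1790 peaks of the list between 2-fold and 3-fold.

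The narrowest members were near the shortest width of the list, 201 bp. The peaks at 14432173 to 14432373 and at 14547915 to 14548115 were 201 bp wide, with scores of 7.38 and 8.86. The next had widths of 210, 220 and 226 bp and scores of 9.11, 12.77 and 8.10. All 11 members narrower than 300 bp were below 2-fold, a share that was not computed elsewhere. Narrow peaks were mostly weak on the rest of 2L too. The median width there was 302 bp below 2-fold. Between 2-fold and 3-fold the lower quartile was 446.5 bp, although the narrowest had 201 bp. Across the 64 members, Spearman's rho of score and width was 0.84, against 0.81 across the 903 other peaks on 2L. Both measures come from the same pileup and the same threshold, so part of this relation is built in.

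Neighbouring TCF peaks lay close together. The median gap between neighbours was 676 bases over the 63 gaps of the noc region and 5971 bases over 901 gaps on the rest of 2L. Gaps under 500 bases made up 28 of the 63 (44.4%), against 18.6% on the rest of 2L, and gaps under 1000 bases made up 38 (60.3%), against 24.9%. The smallest gap was 49 bases, and 5 gaps were under 100 bases. In the next fullest windows the median gap was 412 bases (3R, 800000 to 1000000), 1482.5 bases (3R, 17200000 to 17400000) and 1631 bases (2R, 2400000 to 2600000). Gaps under 500 bases made up 44.4% of those in the noc region and 51.2% of those in the first of these windows. The longest gap was 9897 bases in the noc region and 23630 bases in that window.

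**Figure D3:**
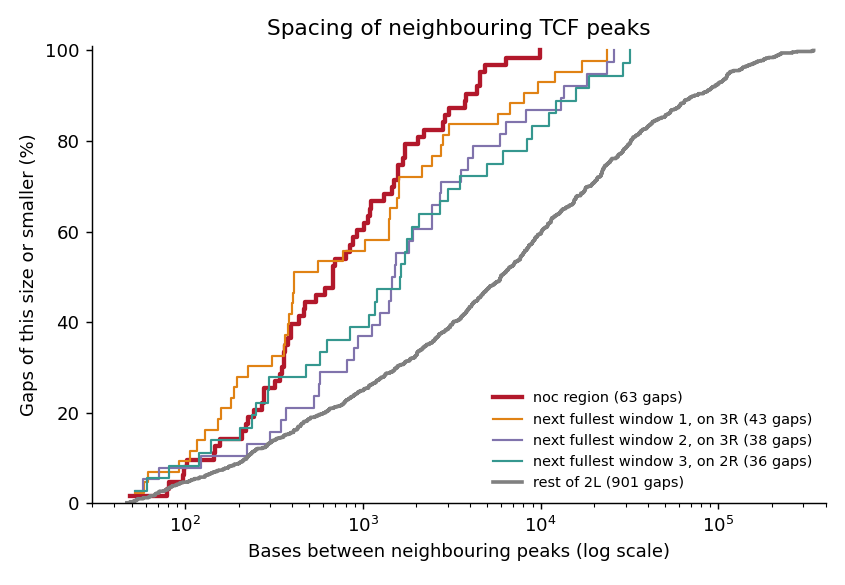
Cumulative share of gaps between neighbouring peaks (percent) against the number of bases between them (log axis), for the noc region, the next fullest windows of the same length, and the rest of 2L. The noc curve reaches 60.3% at 1000 bases, where the curve for the rest of 2L is at 24.9%, and the window with 44 peaks on 3R runs close to it below 1000 bases.

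Strong peaks recurred along the chains with weaker peaks between them. The midpoints of neighbouring members at 3-fold or more were a median of 8.68 kb apart, from 1.86 to 21.8 kb. Between them lay a median of 2 weaker members, from 0 to 9. Before the first of them came 13 weaker members, and after the last came 5. The peaks next to the 12 strong members, counted on both sides of each, were under 2-fold in 9 of 24 cases, between 2-fold and 3-fold in 11 and at 3-fold or more in 4. Among all 64 members these classes held 42.2%, 39.1% and 18.8%, so the mix beside strong members was near that of the region. Some peaks enter the 24 cases more than once, where strong members are neighbours or share a neighbour. The median gap from a strong member to its neighbours was 393 bases. A member at 3-fold or more lay within 2000 bases of 11 of the 27 weakest members (40.7%), whereas a peak at 3-fold or more lay that near to 54 of 333 such peaks on the rest of 2L (16.2%). This nearness follows in part from the density on which the region was chosen. Peaks without an implied fold were left out of the comparison. On the rest of 2L 848 of 903 peaks have one, against all 64 members, so the 16.2% may be too low.

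Coverage was uneven along the region. In bins of 10 kb counted from its start, 17 of 20 bins held a peak, and the empty bins were the first 2 and the last. The best covered bins were those at 80 to 90 kb (79.4%), which holds the strongest peak, at 40 to 50 kb (77.8%) and at 50 to 60 kb (74.6%). A bin with few peaks could still be well covered. The bin at 60 to 70 kb held the midpoint of 1 peak, the widest, and was 56.3% covered. The bin at 100 to 110 kb held 6 peaks and was 51.8% covered. Beyond 120 kb a single bin, at 140 to 150 kb with 56.9%, exceeded 50%. In all, 6 bins were at least 50% covered.

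**Figure D4:**
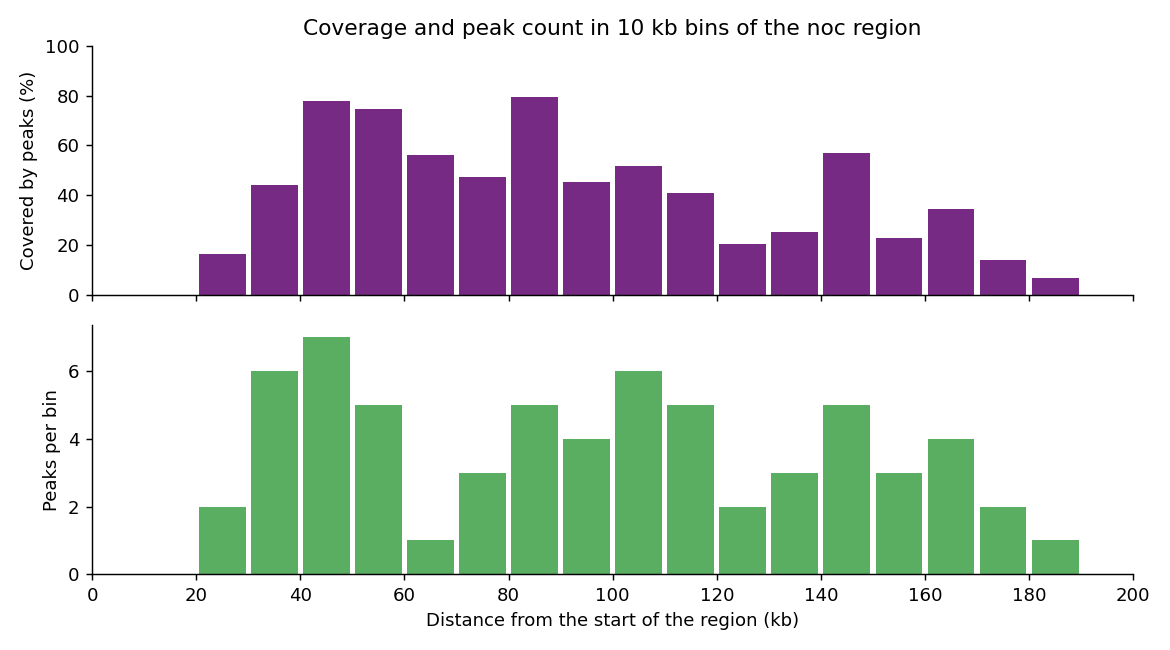
Share of each 10 kb bin covered by TCF peaks (percent, upper panel) and number of peak midpoints per bin (lower panel) against the distance in kb from the start of the region. Coverage is highest at 80 to 90 kb (79.4%), stays above 40% from 30 to 120 kb, and falls to 20.3% at 120 to 130 kb, between the chains.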

How the data were processed

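The deposited file is 1 peak list for the series, on FlyBase release 5 and with MACS as its source, per the file headers. The submitters' processing notes name BWA, MACS2, BDGP5 and the CASAVA versions 1.7.0.2 and 1.7.0.3, without their roles. For thresholds, read filters and pooling of replicates, nothing is stated in the sources used here. The authors deposited 1 score per peak without a scale. Expected pileups from 1 to 400 were searched for the value at which the scores equal the negative log10 of a Poisson upper tail, to within 0.01. At 71.7, 4345 of 4589 scores matched, against 37.4% under the best value at least 1% away. In 3 simulations that drew scores from this same model, the fitted value was within 0.0103% of the true one. They check the search only, and cannot show that the deposited scores follow the model. The authors' release 5 positions were used as deposited, and the release 6 gene table only for names and gene order. The region, the chain rule and the named items (the 10 highest scores, the 5 widest, the 5 narrowest, the first and last peak) were chosen with earlier results of these data known. No test was run, because positions, scores and widths come from 1 contrast. The planned motif search in promoters was not run, and no sequence was analysed here. The alternatives were stricter score limits, merged peaks, another rule of membership and other chain gaps. The tools were pandas 2.3.3 and SciPy 1.17.1 with NumPy 2.4.6, and matplotlib 3.10.9 for figures, under Python 3.11.15.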

Additional observations from a re-analysis of the deposited data

How the results depend on the processing

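Of 33 values under alternatives, 12 stayed close to the main value (counts and chain lengths within 1.5 times, medians within their 95% binomial interval, coverage equal). These include 55 peaks after merging below 200 bp. Most of these 12 values were fixed in advance and say nothing about stability. An overlap of at least 1 bp gives the same 64 peaks, because the limits of the region cut through no peak. The 12 members at 3-fold or more score at least 44.58, above the limit for the higher 50%. Leaving the observed pileup out of the tail moves each pileup by only 1, and these 12 members remained. Among the 50% of all peaks with the higher score, the region held 32 peaks that covered 28.7%, with a median score of 38.1, a median width of 1502 bp and a median gap of 2878 bases, and its longest chain had 12 peaks over 45.1 kb. Among the 25% with the highest score it held 20 peaks that covered 20.5%, with medians of 51.9, 1539 bp and 5174 bases. By construction, these subsets remove weak and narrow peaks. Merging below 1000 bp left 26 peaks that covered 43.1%, with medians of 35.2, 1333.5 bp and 2054 bases, and merging below 200 bp gave a coverage of 36.2%. Merging adds the gaps to the covered length by construction. With gaps of at most 2000 bp the longest chain had 14 peaks over 26.8 kb, and with gaps of at most 10000 bp all 64 peaks formed a single chain of 158 kb. That count is among the 12 values only because 64 lies within 1.5 times of 44. The chain length moved from 97.4 kb by more than that. No paired analysis was possible because ChIP and input replicates are not separate in the peak list, and no replicate could be left out for the same reason. The motif alternative was not run. The depth is unknown, so stretches without a peak cannot be read as free of TCF.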
